A study of Mus musculus with 12 samples.

Results

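The gene expression response of the wild-type mouse heart to ischaemia–reperfusion (IR) injury is described here from 6 of the 12 RNA-seq libraries of the series, 3 labelled WT sham and 3 labelled WT IR. All 6 animals were wild-type C57BL/6J mice, with no transgene or Cre allele, and the methods give an age of 8 to 9 weeks. WT IR hearts had the left anterior descending coronary artery tied for 1 h, were then reperfused and were collected 14 days later. WT sham hearts had sham surgery, and the labels give no time of collection for them. The design text states that each group had 3 animals, so each library stands for 1 heart. The labels name the left ventricle, the methods the remote zone away from the infarct, and the design text the infarct area with its border zone. These descriptions differ and were not reconciled, so which zone was sampled cannot be stated. Apart from a filter on low counts, no rule on expression values chose the genes. Of 38293 gene identifiers in the count table, all 13756 that passed the filter were tested. A gene could pass it through counts in the hearts of 1 group alone.

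After ischaemia, dead cardiomyocytes are cleared by phagocytes, and resident fibroblasts become activated and lay down a collagen matrix that holds the wall together. Activated fibroblasts first express contractile and matricellular genes and later, in the maturing scar, genes otherwise known from tendon and cartilage. Surviving cardiomyocytes under raised load switch on genes of the foetal ventricle, among them natriuretic peptides and the slow myosin heavy chain, and lower genes of oxidative metabolism.

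The libraries held between 20215781 and 36816818 counts, of which between 65.0% and 71.8% fell on the mitochondrial genome and between 5706340 and 11608329 on nuclear genes. The mitochondrial ribosomal RNA gene mt-Rnr2 alone took between 51.7% and 57.6% of all counts. Levels are given as CPM, counts per 1000000 after TMM scaling, and 1 CPM stands for between 17.2 and 37.8 counts. Cardiomyocyte markers had a summed level of 45352 to 64456 CPM over 15 genes. Markers of skeletal muscle summed to at most 3.10 CPM, those of adipocytes to at most 0.643 CPM and those of T and NK cells to at most 3.10 CPM. The atrial markers Myl7, Sln and Bmp10 did not pass the filter. Of the 7 atrial markers 3 were tested, Myl4 among them. By the test given below, 1 of these was called higher after IR (Dkk3, described with the Wnt antagonists) and 1 lower. The small nuclear RNA Rn7sk, which carries no poly(A) tail, was read at 3145, 2697 and 2709 CPM in the WT sham hearts and 3768, 3024 and 4368 CPM in the WT IR hearts. The first principal component over the 500 genes with the highest variance accounted for 83.7% of it and placed the WT sham hearts between -22.6 and -16.6 and the WT IR hearts at 9.81, 21.3 and 30.5.

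Of the 13756 genes tested, 1519 were higher and 1340 lower in WT IR than in WT sham hearts at an adjusted p under 0.05 (edgeR's quasi-likelihood test with Benjamini-Hochberg adjustment, the source of all adjusted p-values given below). These are 11% and 9.74% of the genes tested, the shares against which the counts for each gene list are to be read. CPM of the 2 groups did not overlap for 39.8% of all genes tested and for 2813 of the 2859 called. The increases were larger than the decreases. The median fold of the called genes was 1.70 for the higher and 1.41 for the lower, and 526 of the higher genes but 95 of the lower passed 2-fold. By a test against a change of 1.5-fold (edgeR's glmTreat), 156 genes were higher and 35 lower, or 1.13% and 0.254% of those tested. The median log2 fold change of all genes tested was 0.0064. Calls were sensitive to single hearts: leaving out WT sham 2 left 226 higher and 195 lower genes, WT IR 2 570 and 349, WT sham 1 725 and 552, WT sham 3 699 and 736, and WT IR 3 993 and 862, whereas leaving out WT IR 1 gave 2543 and 2437. In all 6 of these fits 221 of the higher and 181 of the lower genes were called. Scaling on 15 cardiomyocyte markers instead of TMM raised the median of all genes to 0.29 and gave 2788 higher and 229 lower genes. All 1519 higher genes and 228 of the 1340 lower genes were still called with it. Of the called genes named in the text, 14 lost their call with that scaling. Among them were the lower genes Acta2, Cs, Gpc1, Hand2, Hba-a1, Hspd1, Jun, Ppard, Slc25a4, Smad7, Tnni3, Wt1 and mt-Nd2. In RNA from whole tissue, fewer cells of a type and less RNA per cell cannot be told apart.

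**Figure D1:**
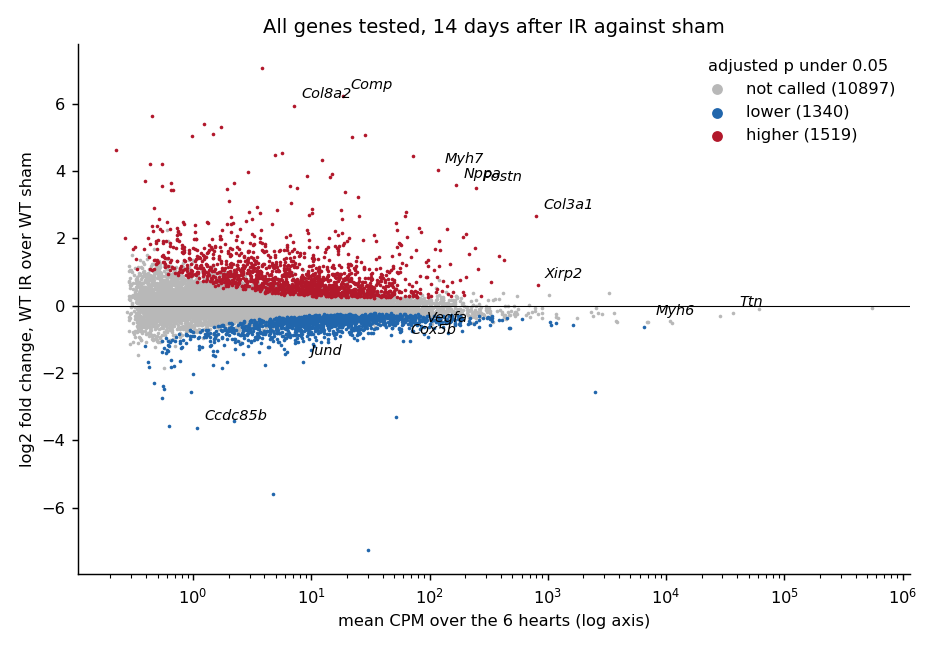
Log2 fold change of WT IR over WT sham (vertical axis) against the mean CPM over the 6 hearts (horizontal log axis) for the 13756 genes tested, with 1519 called higher in red, 1340 called lower in blue and the rest in grey. The higher genes reach further from 0 than most of the lower genes, and the abundant cardiomyocyte genes Ttn and Myh6 lie near or just under 0.

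The 3 injured hearts differed in how far their levels stood from those of the sham hearts. Among the 1519 higher genes WT IR 1 had the lowest level of the 3 injured hearts in 1322 and WT IR 3 the highest in 1283, and 1166 genes followed the order WT IR 1, WT IR 2, WT IR 3. Among the 1340 lower genes WT IR 1 lay nearest to the sham hearts in 1069 and WT IR 3 farthest in 822. Over all genes tested, the 3 hearts stood in that order, or its reverse, in 49.8% of genes. Among the sham hearts, WT sham 1 was the highest in 682 of the higher genes. The extent of the infarct in each heart and the share of scar tissue in each sample were not analysed here. A stronger response and a larger share of scar in the sample cannot be told apart.

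The collagens that build and surround the scar were higher almost without exception. Of 16 fibrillar and network collagens tested, 15 rose and none fell, with a median log2 fold change of 2.04 against 0.0064 over all genes tested, and 10 passed the test against 1.5-fold. Col3a1 (chr1:45311538-45349706, plus strand, these and further gene positions being those of GENCODE M21 on GRCm38), the collagen of loose and early scar tissue, was at 347, 132 and 175 CPM in the WT sham hearts and 793, 1302 and 2044 CPM in the WT IR hearts (log2 fold change 2.66 ± 0.41, adjusted p = 0.00478). It had the largest gain in CPM of all genes called higher and made up 0.0392% to 0.104% of nuclear counts in the sham hearts and 0.243%, 0.424% and 0.664% in the injured hearts. The type I collagen chains, the main fibre of mature scar, were higher as well. Col1a2 was at 120.1, 53.8 and 53.1 CPM in the WT sham hearts and 203, 303 and 483 CPM in the WT IR hearts (log2 fold change 2.12 ± 0.37, adjusted p = 0.0074). Col1a1 was at 94, 30.8 and 33.6 CPM in the WT sham hearts and 116, 156 and 234 CPM in the WT IR hearts (log2 fold change 1.67 ± 0.41, adjusted p = 0.0211). In all 3 genes WT sham 1 stood above the other sham hearts, and WT IR 3 above the other injured hearts. For Col1a1 WT sham 1 came close to WT IR 1.

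The largest relative changes among collagens lay in minor chains. Col8a2, a chain of the short-chain network collagen VIII, was close to absent in sham hearts at 0.227, 0.184 and 0.291 CPM and stood at 8.53, 13.5 and 20.1 CPM after IR (log2 fold change 5.94 ± 0.43, adjusted p = 0.000462). Its injured hearts held it at many times the sham level without overlap. Its partner Col8a1 was already present in sham hearts at 17.9, 17 and 15.6 CPM and reached 64.8, 103 and 152 CPM (log2 fold change 2.66 ± 0.26, adjusted p = 0.00163). Col11a1, a cartilage collagen that starts fibrils, rested on 4 sham counts in all and was at 1.81, 1.64 and 3.84 CPM after IR (log2 fold change 5.40 ± 0.62, adjusted p = 0.00229). Col12a1, which coats fibrils under tension, was at 2.57, 1.2 and 1.8 CPM in the WT sham hearts and 13, 21.4 and 49.1 CPM in the WT IR hearts (log2 fold change 3.92 ± 0.52, adjusted p = 0.00366). The basement membrane around muscle cells and vessels had smaller fold changes: 9 of 17 genes rose and 2 fell, with a median of 0.36. Its common vascular chain Col4a1 was at 323, 302 and 263 CPM in the WT sham hearts and 321, 335 and 336 CPM in the WT IR hearts (adjusted p = 0.281). Col1a1 lost its call without WT sham 2, WT sham 3 or WT IR 2 (adjusted p up to 0.102) and Col1a2 without WT sham 2 (adjusted p = 0.055).

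Matricellular proteins, which signal to cells from within the matrix, and elastic fibre proteins were higher almost throughout: 31 of 33 rose and none fell, with a median of 1.91, and 18 passed the test against 1.5-fold. Postn (periostin, chr3:54361109-54391037, plus strand), the classical product of activated fibroblasts, was at 65.3, 24.4 and 30.1 CPM in the WT sham hearts and 198, 454 and 700.3 CPM in the WT IR hearts (log2 fold change 3.49 ± 0.49, adjusted p = 0.00402). Comp (chr8:70373558-70382066, plus strand), a cartilage and tendon matrix protein, was at 0.378, 0.552 and 0.524 CPM in the WT sham hearts and 21.1, 28.3 and 60.9 CPM in the WT IR hearts (log2 fold change 6.22 ± 0.51, adjusted p = 0.000882), so that every injured heart held at least 20 CPM of a transcript under 1 CPM in every sham heart. Cilp, a cartilage layer protein that is also made in the injured heart, was at 6.58, 6.44 and 5.94 CPM in the WT sham hearts and 65.3, 137 and 214 CPM in the WT IR hearts (log2 fold change 4.45 ± 0.39, adjusted p = 0.00116). The sham hearts lay tightly together for Cilp and the injured hearts spread widely. Sparc, a collagen-binding glycoprotein, was abundant throughout at 126, 106 and 108 CPM in the WT sham hearts and 256, 362 and 491 CPM in the WT IR hearts (log2 fold change 1.71 ± 0.20, adjusted p = 0.00256). Spp1 (osteopontin), secreted by macrophages and fibroblasts, was near 0 in sham hearts at 0.0757, 0.092 and 0.0582 CPM, or 6 counts in all, and was at 1.47, 2.94 and 4.21 CPM after IR (log2 fold change 5.10 ± 0.57, adjusted p = 0.00208). Thbs4, a thrombospondin induced in stressed muscle and stroma, was at 0.984, 0.981 and 1.75 CPM in the WT sham hearts and 11.6, 20.7 and 38.1 CPM in the WT IR hearts (log2 fold change 4.31 ± 0.47, adjusted p = 0.00208). Ccn2, a target of TGF-beta and of mechanical signals, was at 25.4, 13 and 16.8 CPM in the WT sham hearts and 73.8, 61 and 125 CPM in the WT IR hearts (log2 fold change 2.24 ± 0.30, adjusted p = 0.00366). Fn1 (fibronectin) was at 82.8, 36.1 and 33.2 CPM in the WT sham hearts and 105, 180.1 and 286 CPM in the WT IR hearts (log2 fold change 1.91 ± 0.40, adjusted p = 0.0132). Tnc (tenascin C) was at 4.96, 1.32 and 1.57 CPM in the WT sham hearts and 7.5, 15.2 and 30.8 CPM in the WT IR hearts (log2 fold change 2.74 ± 0.57, adjusted p = 0.0125). Both were highest among sham hearts in WT sham 1, and both lost their calls without WT sham 2 or WT sham 3 (adjusted p of 0.0798 and 0.0568 for Fn1 and of 0.0758 and 0.0542 for Tnc).

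Small leucine-rich proteoglycans space and order collagen fibrils, and 13 of the 16 proteoglycans tested rose, with a median of 1.38, while Gpc1 fell. Dcn (decorin), the most abundant of them, was at 204, 196 and 217 CPM in the WT sham hearts and 381, 533 and 800.1 CPM in the WT IR hearts (log2 fold change 1.47 ± 0.22, adjusted p = 0.00464). Aspn (asporin) was at 16.7, 15.5 and 16.3 CPM in the WT sham hearts and 65.9, 97.5 and 169 CPM in the WT IR hearts (log2 fold change 2.78 ± 0.29, adjusted p = 0.002). Omd (osteomodulin) was at 0.605, 0.613 and 0.466 CPM in the WT sham hearts and 2.66, 3.28 and 4.85 CPM in the WT IR hearts (log2 fold change 2.63 ± 0.28, adjusted p = 0.00208). Fmod (fibromodulin), typical of tendon, was at 0.567, 0.491 and 0.233 CPM in the WT sham hearts and 5.41, 9.28 and 17.6 CPM in the WT IR hearts (log2 fold change 4.53 ± 0.51, adjusted p = 0.00222). The cartilage proteoglycan Acan stayed low, at 0.113, 0.0307 and 0 CPM in the WT sham hearts and 0.687, 0.714 and 0.82 CPM in the WT IR hearts, although it passed the test (log2 fold change 3.71 ± 0.52, adjusted p = 0.00402, on 4 sham counts). Gpc1, a membrane-bound heparan sulphate proteoglycan, was at 178, 165 and 155 CPM in the WT sham hearts and 135, 109.6 and 113 CPM in the WT IR hearts (log2 fold change -0.48 ± 0.10, adjusted p = 0.014), a call lost without WT sham 1, WT sham 2 or WT IR 2 (adjusted p up to 0.0732).

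Many enzymes that crosslink and trim collagen were higher too. Of 21 genes of collagen folding and crosslinking, 11 rose and none fell (median 0.57), and of 25 matrix proteases and inhibitors 16 rose and 1 fell (median 1.03). Lox, the enzyme that crosslinks collagen and elastin, was at 9.19, 2.48 and 2.5 CPM in the WT sham hearts and 27.4, 39.4 and 67.7 CPM in the WT IR hearts (log2 fold change 3.22 ± 0.48, adjusted p = 0.00456). WT sham 1 was again the highest sham heart, as it was for the other 4 genes named here. Adamts2, which trims procollagen, was at 15.5, 11.5 and 11.6 CPM in the WT sham hearts and 33.3, 53.6 and 77.7 CPM in the WT IR hearts (log2 fold change 2.09 ± 0.27, adjusted p = 0.00356). Timp1, the inducible inhibitor of matrix metalloproteinases, was at 1.32, 0.736 and 0.698 CPM in the WT sham hearts and 3.75, 6.3 and 9.06 CPM in the WT IR hearts (log2 fold change 2.76 ± 0.36, adjusted p = 0.00366). The gelatinase Mmp2 was at 30, 22 and 25.2 CPM in the WT sham hearts and 52.7, 91.2 and 123 CPM in the WT IR hearts (log2 fold change 1.79 ± 0.26, adjusted p = 0.0043). Ctsk (cathepsin K), a collagen-degrading protease, was at 1.89, 1.23 and 1.22 CPM in the WT sham hearts and 4.91, 7.12 and 11.7 CPM in the WT IR hearts (log2 fold change 2.42 ± 0.33, adjusted p = 0.00391). Genes for matrix production and for matrix degradation were higher in the same hearts. Over the 67 genes of the collagen, matricellular and proteoglycan lists, matrix took 0.646%, 0.444% and 0.479% of nuclear counts in the sham hearts and 1.21%, 1.97% and 2.95% in the injured hearts.

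Signalling genes of the TGF-beta family changed in part. Of 24 tested, 11 rose and 1 fell, with a median of 0.43. Ltbp2, a microfibril protein related to the proteins that store latent TGF-beta, was at 1.89, 1.13 and 0.873 CPM in the WT sham hearts and 22.5, 43.1 and 62.7 CPM in the WT IR hearts (log2 fold change 5.0 ± 0.42, adjusted p = 0.000912). Among the ligands, Tgfb3 was at 7.6, 5.46 and 5.99 CPM in the WT sham hearts and 18.9, 26.2 and 36.7 CPM in the WT IR hearts (log2 fold change 2.10 ± 0.23, adjusted p = 0.00208). Tgfb2 was at 3.33, 3.43 and 3.14 CPM in the WT sham hearts and 5.91, 8.54 and 12.3 CPM in the WT IR hearts (log2 fold change 1.42 ± 0.24, adjusted p = 0.00672), whereas Tgfb1, the ligand most often studied in fibrosis, was at 4.43, 4.02 and 4.25 CPM in the WT sham hearts and 3.28, 3.91 and 4.1 CPM in the WT IR hearts (log2 fold change -0.17 ± 0.13, adjusted p = 0.387). The inhibitory Smad gene Smad7 was the member that fell, and was at 7.75, 7.02 and 7.57 CPM in the WT sham hearts and 4.37, 5.05 and 5.3 CPM in the WT IR hearts (log2 fold change -0.60 ± 0.11, adjusted p = 0.00909). Fstl1, a secreted glycoprotein of stromal cells, was at 61, 39.1 and 45.1 CPM in the WT sham hearts and 133, 219.9 and 345 CPM in the WT IR hearts (log2 fold change 2.27 ± 0.31, adjusted p = 0.00383). Secreted antagonists of Wnt signalling were higher in 4 of the 5 tested, with a median of 3.05. Sfrp2 was at 2.19, 1.13 and 1.75 CPM in the WT sham hearts and 28.2, 45.2 and 92.3 CPM in the WT IR hearts (log2 fold change 5.05 ± 0.48, adjusted p = 0.00156). Frzb was at 1.7, 1.17 and 1.46 CPM in the WT sham hearts and 8.03, 9.95 and 17.8 CPM in the WT IR hearts (log2 fold change 3.05 ± 0.32, adjusted p = 0.002). Dkk3, a Dickkopf family member, was at 1.66, 0.797 and 1.11 CPM in the WT sham hearts and 9.69, 14.3 and 27.3 CPM in the WT IR hearts (log2 fold change 3.85 ± 0.43, adjusted p = 0.00208). Sfrp1 was at 6.77, 5.76 and 7.28 CPM in the WT sham hearts and 13.6, 31 and 43.6 CPM in the WT IR hearts (log2 fold change 2.16 ± 0.36, adjusted p = 0.00601), with an adjusted p of 0.0504 without WT sham 2. WT IR 1 had the lowest and WT IR 3 the highest level of every Wnt antagonist named.

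**Figure D2:**
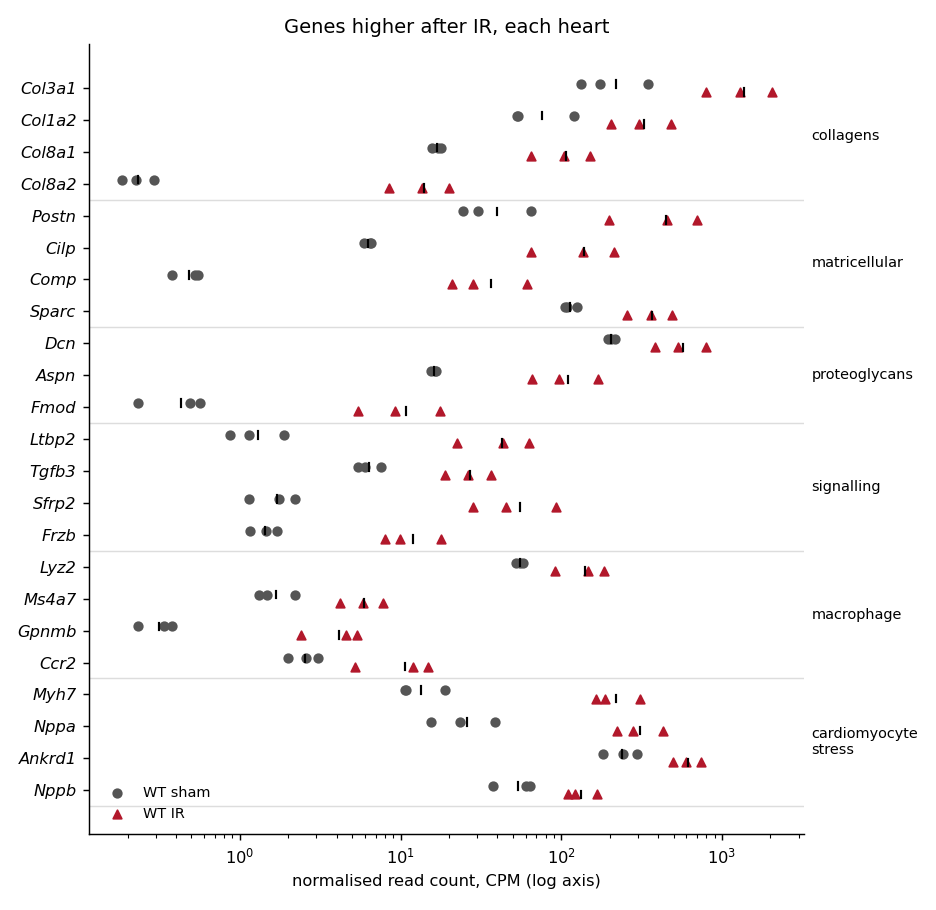
CPM (log axis) of 23 genes higher after IR in each of the 3 WT sham hearts (grey circles) and 3 WT IR hearts (red triangles), with short lines at the group means, ordered by role. The groups do not overlap for any gene shown, and the injured hearts spread over a wider range than most of the sham hearts.

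Further leading genes were named by rank, and all but Angptl7, one of the matrifibrocyte markers counted below, belong to no list. C1qtnf3, a secreted protein of the C1q and TNF superfamily, had the largest log2 fold change of the ranked genes. It was at 2.94, 7.78 and 12 CPM in WT IR hearts and rested on 4 counts in the sham hearts (log2 fold change 7.05 ± 0.82, adjusted p = 0.00229). Angptl7, an angiopoietin-like protein, was at 0.492, 0.399 and 0.349 CPM in the WT sham hearts and 5.37, 8.57 and 14.5 CPM in the WT IR hearts (log2 fold change 4.47 ± 0.43, adjusted p = 0.00163). Fibin was at 2.53, 2.58 and 2.04 CPM in the WT sham hearts and 12.5, 14.5 and 26.4 CPM in the WT IR hearts (log2 fold change 2.87 ± 0.29, adjusted p = 0.00176). Among ion channel genes the potassium channel subunits Kcnma1 (1, 2.01 and 2.65 CPM after IR, 4 counts in all in sham hearts, log2 fold change 5.04 ± 0.60, adjusted p = 0.00256) and Kcne4 (1.02, 0.797 and 1.11 CPM in sham and 3, 3.62 and 4.4 CPM in injured hearts, log2 fold change 1.94 ± 0.21, adjusted p = 0.00208) rose. Their groups did not overlap.

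By cell of origin, fibroblast markers were higher in large part. Of 12 general fibroblast markers 10 rose (median 1.19), of 12 markers of activated fibroblasts 11 rose and 1 fell (median 2.24), and of 8 markers of matrifibrocytes, the late scar fibroblasts, 7 rose (median 3.94). The summed level of the general markers was 876 to 1006 CPM in sham and 1416 to 2567 CPM in injured hearts, and that of the matrifibrocyte markers 126 to 159 and 262 to 557 CPM. Many of these markers are themselves matrix genes and were counted above. Regulators and surface markers of fibroblasts varied widely. Pdgfra, the receptor that defines cardiac fibroblasts, was at 33.3, 32.8 and 32.6 CPM in the WT sham hearts and 42.2, 56.4 and 71 CPM in the WT IR hearts (log2 fold change 0.78 ± 0.16, adjusted p = 0.0111). Tcf21, a transcription factor of resting fibroblasts, was at 1.32, 1.26 and 1.46 CPM in the WT sham hearts and 1.28, 2.17 and 2.5 CPM in the WT IR hearts (adjusted p = 0.144). Cthrc1, a marker of the most activated fibroblasts, was at 0.87, 0.0613 and 0.0582 CPM in the WT sham hearts and 3.12, 4.07 and 9.32 CPM in the WT IR hearts (log2 fold change 3.97 ± 0.69, adjusted p = 0.00729). Meox1, a transcription factor of activated fibroblasts, was at 6.54, 5.92 and 6.64 CPM in the WT sham hearts and 13.1, 19.2 and 32 CPM in the WT IR hearts (log2 fold change 1.75 ± 0.28, adjusted p = 0.00546). Sox9, a transcription factor shared with cartilage, was at 0.946, 1.23 and 2.27 CPM in the WT sham hearts and 2.84, 4.21 and 6.12 CPM in the WT IR hearts (log2 fold change 1.63 ± 0.34, adjusted p = 0.0129). Pdgfra and Cthrc1 lost their calls without WT sham 2 and Sox9 without WT sham 1 or WT sham 2 (adjusted p up to 0.0802).

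Contractile genes of stroma were mixed. Acta2 (smooth muscle actin), a myofibroblast and smooth muscle gene, was at 43.8, 52.7 and 39.1 CPM in the WT sham hearts and 34.4, 31.1 and 26.1 CPM in the WT IR hearts (log2 fold change -0.57 ± 0.13, adjusted p = 0.0163), lower in every injured heart than in any sham heart. Its call was lost without WT sham 2 or WT IR 2 (adjusted p up to 0.0871), and its log2 fold change was -0.29 (adjusted p = 0.0833) with scaling on cardiomyocyte markers. Tagln, another gene of contractile stroma, was at 4.35, 4.11 and 3.96 CPM in the WT sham hearts and 7.28, 5.53 and 8.61 CPM in the WT IR hearts (log2 fold change 0.77 ± 0.16, adjusted p = 0.0133) and lost its call without WT sham 2 or WT sham 3 (adjusted p up to 0.0733). Among smooth muscle markers, the myosin gene Myh11 was at 8.78, 8.25 and 8.03 CPM in the WT sham hearts and 10.7, 6.64 and 7.5 CPM in the WT IR hearts (adjusted p = 0.953). Its groups overlapped. Of 9 smooth muscle markers 1 rose and 2 fell (median -0.02), and of 8 pericyte markers 1 rose and 1 fell (median 0.07). The pericyte receptor gene Pdgfrb, also expressed by fibroblasts, was at 43.8, 45.7 and 40.5 CPM in the WT sham hearts and 57.6, 59.8 and 64.4 CPM in the WT IR hearts (log2 fold change 0.48 ± 0.08, adjusted p = 0.0063).

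Macrophage genes were higher in part. Of 12 general macrophage markers 9 rose (median 0.99), and 1 of 7 markers of resident macrophages rose (median 0.15). Of 9 markers of recruited monocytes and macrophages 5 were tested, and all 5 rose (median 2.09). The other recruited markers, Ly6c2, Plac8, Chil3 and Arg1, did not pass the filter on low counts. In WT sham and then WT IR hearts, Ly6c2 had 2, 2 and 5 and 5, 10 and 4 counts, and Plac8 2, 6 and 2 and 4, 23 and 29. Chil3 had 4, 4 and 2 and 1, 1 and 2 counts, and Arg1 29, 0 and 0 and 0, 1 and 2. Lyz2 (lysozyme, chr10:117277331-117282321, minus strand) was at 57.7, 52.6 and 55.1 CPM in the WT sham hearts and 91, 146 and 184 CPM in the WT IR hearts (log2 fold change 1.35 ± 0.21, adjusted p = 0.0049). Ms4a7, a gene of tissue macrophages, was at 1.32, 1.47 and 2.21 CPM in the WT sham hearts and 4.19, 5.82 and 7.79 CPM in the WT IR hearts (log2 fold change 1.87 ± 0.26, adjusted p = 0.00402). Adgre1, a surface receptor of mature macrophages, was at 10.9, 8.34 and 10.5 CPM in the WT sham hearts and 14, 22 and 27.7 CPM in the WT IR hearts (log2 fold change 1.10 ± 0.22, adjusted p = 0.0108). The chemokine receptor gene Ccr2, which marks cells recruited from blood, was at 2.57, 1.99 and 3.08 CPM in the WT sham hearts and 5.19, 11.9 and 14.8 CPM in the WT IR hearts (log2 fold change 2.09 ± 0.36, adjusted p = 0.00677). Timd4, a marker of self-renewing resident macrophages, was at 0.643, 0.583 and 1.11 CPM in the WT sham hearts and 0.656, 0.952 and 0.485 CPM in the WT IR hearts (adjusted p = 0.938). Folr2, another such marker, was at 3.52, 3.19 and 3.49 CPM in the WT sham hearts and 3.22, 4.13 and 3.88 CPM in the WT IR hearts (adjusted p = 0.49). The groups overlapped for both. The difference between the recruited and resident lists was not tested, and 2 of the recruited markers, Fn1 and Spp1, are matrix genes that fibroblasts also express. Adgre1 and Ccr2 lost their calls without WT sham 2 (adjusted p of 0.0697 and 0.054).

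Phagocytosis and complement genes followed. Of 29 lysosome and phagocytosis genes 17 rose and none fell (median 0.66). Gpnmb (chr6:49036546-49070929, plus strand), a glycoprotein of lipid-laden phagocytes, was at 0.378, 0.337 and 0.233 CPM in the WT sham hearts and 2.41, 4.6 and 5.37 CPM in the WT IR hearts (log2 fold change 3.64 ± 0.38, adjusted p = 0.002). Lgals3 (galectin 3) was at 0.87, 0.859 and 0.815 CPM in the WT sham hearts and 2.22, 4.23 and 6.08 CPM in the WT IR hearts (log2 fold change 2.28 ± 0.36, adjusted p = 0.0053). Trem2, a receptor for lipids and dead cells, was at 0.794, 0.644 and 0.64 CPM in the WT sham hearts and 1.62, 2.91 and 3.73 CPM in the WT IR hearts (log2 fold change 1.97 ± 0.33, adjusted p = 0.00617). Tyrobp, its signalling adaptor, was at 4.01, 3.56 and 3.78 CPM in the WT sham hearts and 7.37, 9.73 and 14.1 CPM in the WT IR hearts (log2 fold change 1.46 ± 0.22, adjusted p = 0.00464). Complement genes rose in 11 of 13 (median 1.05). Serping1 (C1 inhibitor), which holds back the start of the cascade, was at 26.3, 27 and 31.8 CPM in the WT sham hearts and 51.7, 85.9 and 109 CPM in the WT IR hearts (log2 fold change 1.54 ± 0.23, adjusted p = 0.00441). The central component C3 was at 78.3, 65.8 and 123 CPM in the WT sham hearts and 78.2, 160.1 and 210.0 CPM in the WT IR hearts (adjusted p = 0.131), with WT sham 3 above WT IR 1. Trem2 had an adjusted p of 0.0504 without WT sham 2.

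Antigen presentation and cytokine genes were higher in part. Of 8 genes of MHC class II presentation 5 rose (median 0.80). Between 0 and 8 of them were called higher when 1 library was left out, and none passed the test against 1.5-fold. Ctss (cathepsin S), the protease that trims the invariant chain, was at 8.47, 7.63 and 7.57 CPM in the WT sham hearts and 11.7, 20.2 and 28.3 CPM in the WT IR hearts (log2 fold change 1.34 ± 0.26, adjusted p = 0.0103). Cd74, the invariant chain, was at 35.7, 38.1 and 40.1 CPM in the WT sham hearts and 41.5, 60.8 and 83.2 CPM in the WT IR hearts (log2 fold change 0.70 ± 0.20, adjusted p = 0.0371). Of 32 chemokines, cytokines and receptors 17 rose and none fell (median 0.69), and between 1 and 21 were called higher when 1 library was left out. Cxcr4 was at 2.87, 2.18 and 2.27 CPM in the WT sham hearts and 4.87, 4.76 and 4.59 CPM in the WT IR hearts (log2 fold change 0.96 ± 0.14, adjusted p = 0.00448). Il33, an alarmin of stromal cells, was at 1.55, 1.35 and 1.51 CPM in the WT sham hearts and 2.87, 4.92 and 10 CPM in the WT IR hearts (log2 fold change 2.0 ± 0.42, adjusted p = 0.013). Ccl21a, a chemokine of lymphatic vessels, was at 2.53, 3.07 and 4.25 CPM in the WT sham hearts and 6.44, 16.7 and 22.5 CPM in the WT IR hearts (log2 fold change 2.24 ± 0.41, adjusted p = 0.00826). The acute inflammatory cytokine gene Il1b was at 0.681, 0.859 and 0.815 CPM in the WT sham hearts and 0.187, 0.45 and 1.27 CPM in the WT IR hearts (adjusted p = 0.647). Ccl2, the chemokine that draws monocytes, was at 0.832, 1.17 and 1.4 CPM in the WT sham hearts and 0.5, 0.952 and 1.27 CPM in the WT IR hearts (adjusted p = 0.546). The groups overlapped for both, and Tnf and Il6 did not pass the filter on low counts. MHC class I genes (2 of 10 higher, median 0.28) and interferon-stimulated genes (5 of 22 higher, median 0.33) stood nearer to the background share of 11%. Within these lists B2m was at 83.5, 81.1 and 114 CPM in the WT sham hearts and 102, 151 and 148 CPM in the WT IR hearts (adjusted p = 0.0564). Isg15 was at 0.567, 0.675 and 0.349 CPM in the WT sham hearts and 0.5, 1.08 and 0.932 CPM in the WT IR hearts (adjusted p = 0.254). Ctss, Cd74, Il33 and Ccl21a lost their calls without WT sham 2 (adjusted p of 0.0653, 0.131, 0.0774 and 0.0587), and Cd74 also without any other single library but WT IR 1.

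Markers of other cell types differed by type. Of 12 endothelial markers none rose and 1 fell (median -0.20). Pecam1 was at 63.2, 66.4 and 65.8 CPM in the WT sham hearts and 72.9, 71.3 and 64.1 CPM in the WT IR hearts (log2 fold change 0.09 ± 0.08). Cdh5 was at 85, 94.5 and 96.9 CPM in the WT sham hearts and 99.3, 99 and 75.5 CPM in the WT IR hearts (log2 fold change -0.01 ± 0.11). Lymphatic endothelial markers rose in 4 of 7 (median 0.86). Mmrn1 was at 4.88, 6.68 and 8.09 CPM in the WT sham hearts and 10.9, 18.3 and 29.1 CPM in the WT IR hearts (log2 fold change 1.58 ± 0.32, adjusted p = 0.0112). Pdpn, which fibroblasts and macrophages can also express, was at 1.7, 1.69 and 1.92 CPM in the WT sham hearts and 3.06, 4.68 and 6.26 CPM in the WT IR hearts (log2 fold change 1.40 ± 0.25, adjusted p = 0.00797), but the lymphatic receptor gene Lyve1 was at 7.11, 7.94 and 7.1 CPM in the WT sham hearts and 8.56, 8.7 and 12 CPM in the WT IR hearts (adjusted p = 0.0788). Mmrn1 and Pdpn lost their calls without WT sham 2 (adjusted p of 0.0653 and 0.0572). The mast cell protease gene Cpa3 was at 0.227, 0.184 and 0.116 CPM in the WT sham hearts and 0.5, 0.714 and 0.559 CPM in the WT IR hearts (log2 fold change 1.68 ± 0.36, adjusted p = 0.0136). The immunoglobulin gene Ighm was at 4.2, 4.38 and 3.49 CPM in the WT sham hearts and 4.81, 14.3 and 11.2 CPM in the WT IR hearts (log2 fold change 1.31 ± 0.33, adjusted p = 0.0239), while Ms4a1 and Cd79a did not pass the filter. Wt1, a gene of the epicardium, was at 3.67, 2.79 and 3.2 CPM in the WT sham hearts and 1.62, 1.67 and 1.94 CPM in the WT IR hearts (log2 fold change -0.89 ± 0.17, adjusted p = 0.00906). The haemoglobin gene Hba-a1, a sign of residual blood, was at 9.8, 16.5 and 16.5 CPM in the WT sham hearts and 10.9, 7.17 and 7.68 CPM in the WT IR hearts (log2 fold change -0.73 ± 0.22, adjusted p = 0.0411). Its reads can be shared with the near-identical Hba-a2, and it was the one called gene described here whose groups overlapped. Cpa3, Ighm and Hba-a1 were each lost in several fits that left out a library (WT sham 2, WT sham 3 and WT IR 2 in all of them, WT sham 1 for Ighm and WT IR 3 for Hba-a1, with adjusted p up to 0.0824, 0.0975 and 0.17).

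**Figure D3:**
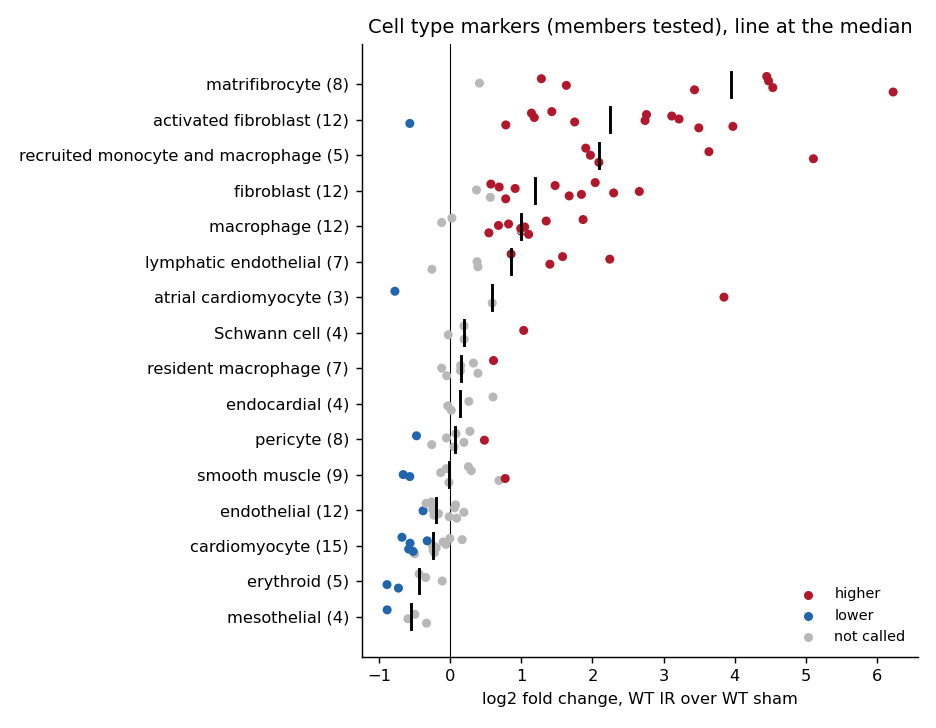
Log2 fold change of WT IR over WT sham for each tested marker of 16 cell types (number of markers in brackets), with red for genes called higher, blue for genes called lower, grey for the rest and a black line at each median. Fibroblast and recruited macrophage markers lie to the right, and endothelial, smooth muscle and cardiomyocyte markers lie near or under 0.

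Genes of the foetal programme of cardiomyocytes were higher in part. The libraries are from whole tissue, and the part of other cell types in these levels was not tested. Of 22 stress and foetal genes tested 9 rose and 2 fell, with a median of 0.29. Myh7 (chr14:54970684-54994626, minus strand), the slow beta myosin heavy chain, was at 18.9, 10.9 and 10.7 CPM in the WT sham hearts and 186, 166 and 308 CPM in the WT IR hearts (log2 fold change 4.02 ± 0.29, adjusted p = 0.000462). Myh6, the fast alpha chain of the adult mouse ventricle, was at 8815, 8604 and 7497 CPM in the WT sham hearts and 7204, 5516 and 4911 CPM in the WT IR hearts (log2 fold change -0.50 ± 0.19, adjusted p = 0.086). Counted per base of transcript, Myh7 made up 0.167%, 0.0987% and 0.111% of the sum of both chains in sham hearts and 1.98%, 2.29% and 4.67% in injured hearts, so that Myh6 remained the main chain in every heart. Nppa (atrial natriuretic peptide, chr4:148000722-148002079, plus strand), secreted on wall stretch, was at 38.7, 23.4 and 15.5 CPM in the WT sham hearts and 222, 281 and 429 CPM in the WT IR hearts (log2 fold change 3.57 ± 0.34, adjusted p = 0.00156). Nppb (B-type natriuretic peptide) was at 63.6, 60.7 and 37.5 CPM in the WT sham hearts and 111, 122 and 168 CPM in the WT IR hearts (log2 fold change 1.30 ± 0.21, adjusted p = 0.0053). Ankrd1, a stretch-responsive protein of the sarcomere and nucleus, was at 295, 243 and 181 CPM in the WT sham hearts and 494, 602 and 744 CPM in the WT IR hearts (log2 fold change 1.36 ± 0.19, adjusted p = 0.00407). Acta1 (skeletal actin), co-expressed in the foetal heart, was at 127, 129 and 101 CPM in the WT sham hearts and 135, 188 and 250.4 CPM in the WT IR hearts (log2 fold change 0.69 ± 0.20, adjusted p = 0.0358). Xirp2, an actin-binding protein of the intercalated disc, was at 665, 663 and 612 CPM in the WT sham hearts and 846, 946 and 1188 CPM in the WT IR hearts (log2 fold change 0.62 ± 0.14, adjusted p = 0.0149). For Acta1 and Xirp2 the call was lost without WT sham 1, WT sham 2, WT sham 3 or WT IR 2 (and WT IR 3 for Acta1), with adjusted p up to 0.131 and 0.0824.

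Each of these myosin genes carries a microRNA in an intron. The sequences are shown because one host transcript rose and the other did not pass the test. The mature forms, from RefSeq on GRCm38.p6, are given 5′ to 3′ with the seed (bases 2 to 8) in capitals. The first lies in an intron of Myh6 (chr14:54949072-54949093, minus strand) and the second in an intron of Myh7 (chr14:54975710-54975731, minus strand). They share the seed and differ by G10A, A16G and C18U, counted from the 5′ end of the first. These libraries do not measure mature microRNAs, so no level is given for either.
mmu-miR-208a-3p: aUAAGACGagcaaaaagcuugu
mmu-miR-208b-3p: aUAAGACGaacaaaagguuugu

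Promoters were read from RefSeq (GRCm38.p6, 250 bases before to 50 after the start) for 10069 of the genes tested, 1105 of them higher and 1023 lower. The motifs were searched on both strands and are a description without a test. A gene counted as having a motif if any of its promoters held it. The TATA motif TATAAA was found for 13.7% of higher genes, 8.02% of lower genes and 8.99% of all genes tested. Counted per promoter and not per gene, which is another measure, it was in 13.6% of all promoters read. The AP-1 motif TGAGTCA was in 6.24%, 4.01% and 4.49%. The E-box CAGGTG was in 18.2%, 24.5% and 20.2%, and the NRF1 site, a GC-rich element frequent at genes of mitochondrial proteins, in 3.71%, 8.41% and 7.24%. The CArG box was in 1.90%, 1.76% and 1.61%, the MEF2 site in 2.08%, 3.13% and 2.43%, and TCAAGGTCA, bound by oestrogen-related receptors, in 0.452%, 0.391% and 0.318%. CACGTG, bound by clock and MYC-type factors, was in 11%, 9.58% and 11.8%, and GGAAGT, bound by ETS factors, in 30.7%, 27.2% and 32.0%. Higher and lower genes also differed in GC content, as given below, and the part of base composition in these shares was not tested.

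The promoters of Nppa, Postn and Gpnmb are printed as examples from a cardiomyocyte, a fibroblast and a phagocyte gene that rose. Each is 5′ to 3′ on the strand of the gene. Capitals mark TATAAA in Nppa and Postn. In Gpnmb they mark TGAGTCA, which lies on the other strand and so reads as its reverse complement. The windows are chr4:148000472-148000771, chr3:54360857-54361156 and chr6:49036268-49036567, all on the plus strand.
Nppa: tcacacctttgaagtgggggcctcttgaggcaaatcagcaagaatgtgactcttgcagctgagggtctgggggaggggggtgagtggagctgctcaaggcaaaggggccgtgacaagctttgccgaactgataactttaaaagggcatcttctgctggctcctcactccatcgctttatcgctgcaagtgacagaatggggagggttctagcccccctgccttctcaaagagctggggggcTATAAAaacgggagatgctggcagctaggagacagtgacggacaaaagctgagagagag
Postn: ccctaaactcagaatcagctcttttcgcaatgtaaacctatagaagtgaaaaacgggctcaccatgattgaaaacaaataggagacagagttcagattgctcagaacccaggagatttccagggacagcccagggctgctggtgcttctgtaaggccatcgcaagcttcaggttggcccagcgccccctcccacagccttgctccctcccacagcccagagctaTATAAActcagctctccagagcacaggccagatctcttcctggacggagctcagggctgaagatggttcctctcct
Gpnmb: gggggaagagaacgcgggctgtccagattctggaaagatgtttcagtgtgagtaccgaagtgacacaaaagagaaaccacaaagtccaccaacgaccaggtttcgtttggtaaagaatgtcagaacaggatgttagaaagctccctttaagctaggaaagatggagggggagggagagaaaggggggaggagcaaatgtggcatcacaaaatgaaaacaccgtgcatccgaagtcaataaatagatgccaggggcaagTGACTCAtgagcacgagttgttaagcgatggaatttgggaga

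Genes of the cytoskeleton were higher in large part, and those of cytosolic ribosomal proteins in smaller part. Of 32 actin and tubulin cytoskeleton genes 21 rose and none fell (median 0.53). With 1 library left out, between 1 and 24 of them were called higher. Of the 32, 1 passed the test against 1.5-fold. Vim (vimentin), the intermediate filament of stromal and immune cells, was at 64.1, 55.5 and 58.8 CPM in the WT sham hearts and 90.5, 132 and 180.4 CPM in the WT IR hearts (log2 fold change 1.18 ± 0.20, adjusted p = 0.00736). Tmsb4x (thymosin beta 4), an actin-binding peptide, was at 81.2, 75.8 and 88.6 CPM in the WT sham hearts and 112, 153 and 181 CPM in the WT IR hearts (log2 fold change 0.86 ± 0.16, adjusted p = 0.00797). Anxa1 (annexin A1) was at 8.66, 6.84 and 9.49 CPM in the WT sham hearts and 17.3, 22.7 and 36.6 CPM in the WT IR hearts (log2 fold change 1.63 ± 0.25, adjusted p = 0.00486). Of 41 cytosolic ribosomal protein genes 18 rose and 3 fell (median 0.26). Between 1 and 19 of them were called higher when 1 library was left out, and none passed the test against 1.5-fold. Rps14 was at 34, 35.1 and 34.3 CPM in the WT sham hearts and 46.8, 46.8 and 60.6 CPM in the WT IR hearts (log2 fold change 0.58 ± 0.11, adjusted p = 0.00871). Rpl3l, the striated muscle form of ribosomal protein L3, was at 41.8, 43 and 41.9 CPM in the WT sham hearts and 30.8, 25.6 and 21 CPM in the WT IR hearts (log2 fold change -0.71 ± 0.12, adjusted p = 0.00711). Its general form Rpl3 was at 4.01, 3.37 and 3.73 CPM in the WT sham hearts and 4.41, 5.63 and 6.97 CPM in the WT IR hearts (log2 fold change 0.61 ± 0.17, adjusted p = 0.035). Rpl3l made up 91.2%, 92.7% and 91.8% of the counts of both in sham hearts and 87.5%, 81.9% and 75.1% in injured hearts. Ribosomal protein genes have many pseudogene copies that can draw off reads, so their levels are uncertain. Proliferation genes were near the background share, with 5 of 39 higher (median 0.39). Mki67 was at 8.85, 9.44 and 8.32 CPM in the WT sham hearts and 8.75, 13.5 and 11.4 CPM in the WT IR hearts (adjusted p = 0.137). Vim, Tmsb4x, Rps14, Rpl3l and Rpl3 lost their calls without WT sham 2 (adjusted p of 0.0555, 0.0587, 0.0556, 0.0504 and 0.154), and Rpl3 without any other library but WT IR 1.

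Hypoxia and epithelial-to-mesenchymal transition factors, the setting of the study, rose in 8 of 19 and fell in 2 (median 0.26). Hif1a (chr12:73901375-73947530, plus strand), the oxygen-regulated subunit of hypoxia-inducible factor 1, was at 74.1, 63.4 and 66.1 CPM in the WT sham hearts and 84, 96.8 and 109 CPM in the WT IR hearts (log2 fold change 0.51 ± 0.11, adjusted p = 0.0132). Zeb2 (chr2:44983632-45117395, minus strand), a zinc finger repressor, was at 49, 49.9 and 55.9 CPM in the WT sham hearts and 59.1, 80.8 and 74.6 CPM in the WT IR hearts (log2 fold change 0.47 ± 0.12, adjusted p = 0.0219). The injured hearts lay above all sham hearts for both genes, with small margins. Zeb2 lost its call without WT sham 1, WT sham 2 or WT IR 2 (adjusted p up to 0.112) and Hif1a without WT sham 2, WT sham 3 or WT IR 2 (adjusted p up to 0.0859). Vegfa, an angiogenic growth factor and a well-known target of hypoxia-inducible factors, moved the other way, at 107, 100.4 and 101 CPM in the WT sham hearts and 66.6, 65.1 and 58.2 CPM in the WT IR hearts (log2 fold change -0.70 ± 0.08, adjusted p = 0.0023). The glucose transporter gene Slc2a1, another such target, was at 4.99, 4.08 and 3.73 CPM in the WT sham hearts and 4.84, 5.18 and 5.59 CPM in the WT IR hearts (adjusted p = 0.173). Runx1, a transcription factor of injured cardiomyocytes and stromal cells, was at 2.72, 2.91 and 3.26 CPM in the WT sham hearts and 3.5, 6.43 and 9.73 CPM in the WT IR hearts (log2 fold change 1.14 ± 0.32, adjusted p = 0.0321) and lost its call without any library but WT IR 1 (adjusted p up to 0.127). Macrophages, fibroblasts and endothelial cells also express Zeb2, and the part of each cell type was not tested.

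Ranked by p-value, the lower genes were led by genes of low or moderate level, mostly with GC-rich transcripts. Jund (chr8:70698949-70700616, plus strand), a subunit of AP-1, was at 13.4, 12.9 and 12.5 CPM in the WT sham hearts and 4.66, 3.2 and 4.4 CPM in the WT IR hearts (log2 fold change -1.67 ± 0.14, adjusted p = 0.000882). Ccdc85b, a small coiled-coil protein, was at 1.78, 1.84 and 2.39 CPM in the WT sham hearts and 0.187, 0.0794 and 0.224 CPM in the WT IR hearts (log2 fold change -3.62 ± 0.33, adjusted p = 0.00128). Scand1 was at 3.67, 3.4 and 5.06 CPM in the WT sham hearts and 0.594, 0.106 and 0.447 CPM in the WT IR hearts (log2 fold change -3.43 ± 0.38, adjusted p = 0.00208). The neurotrophic factor gene Nrtn was at 1.7, 1.47 and 1.75 CPM in the WT sham hearts and 0.312, 0.185 and 0.336 CPM in the WT IR hearts (log2 fold change -2.57 ± 0.27, adjusted p = 0.002). Id1, a target of BMP signalling, was at 9.61, 9.9 and 10.4 CPM in the WT sham hearts and 5.28, 4.07 and 4.85 CPM in the WT IR hearts (log2 fold change -1.08 ± 0.12, adjusted p = 0.00208). Rgma, a BMP co-receptor, was at 8.51, 9.14 and 8.61 CPM in the WT sham hearts and 4.72, 4.63 and 4.29 CPM in the WT IR hearts (log2 fold change -0.94 ± 0.10, adjusted p = 0.002). Nr2f6, an orphan nuclear receptor, was at 10.1, 10.5 and 8.96 CPM in the WT sham hearts and 5.12, 4.36 and 4.33 CPM in the WT IR hearts (log2 fold change -1.10 ± 0.11, adjusted p = 0.002). None of these overlapped between groups, and none lost its call when any single library was left out.

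GC content of transcripts moved with the comparison. Its median was 47.4% for higher genes, 55.2% for lower genes and 49.4% for all genes tested, and across 13609 genes Spearman's rho between log2 fold change and GC content was -0.29. Genes are not independent replicates, so this is a description. A correction that removed a loess trend with GC from each library left 1200 of the 1519 higher and 916 of the 1340 lower genes called in the same direction, and 23 of the lower genes changed sign. With it, the log2 fold change went from -1.67 to -0.46 for Jund, from -2.57 to -0.0048 for Nrtn (adjusted p = 0.993), from -1.10 to 0.14 for Nr2f6 (adjusted p = 0.43) and from -3.43 to -1.98 for Scand1. It stayed at -3.56 for Ccdc85b, -1.02 for Id1 and -0.71 for Vegfa. Of the other genes named here as lower, Gpc1, Hba-a1, Hcn2, Nkx2-5 and Tnni3 lost their call with it. A true change that follows GC content would be removed as well, and which applies was not tested.

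**Figure D4:**
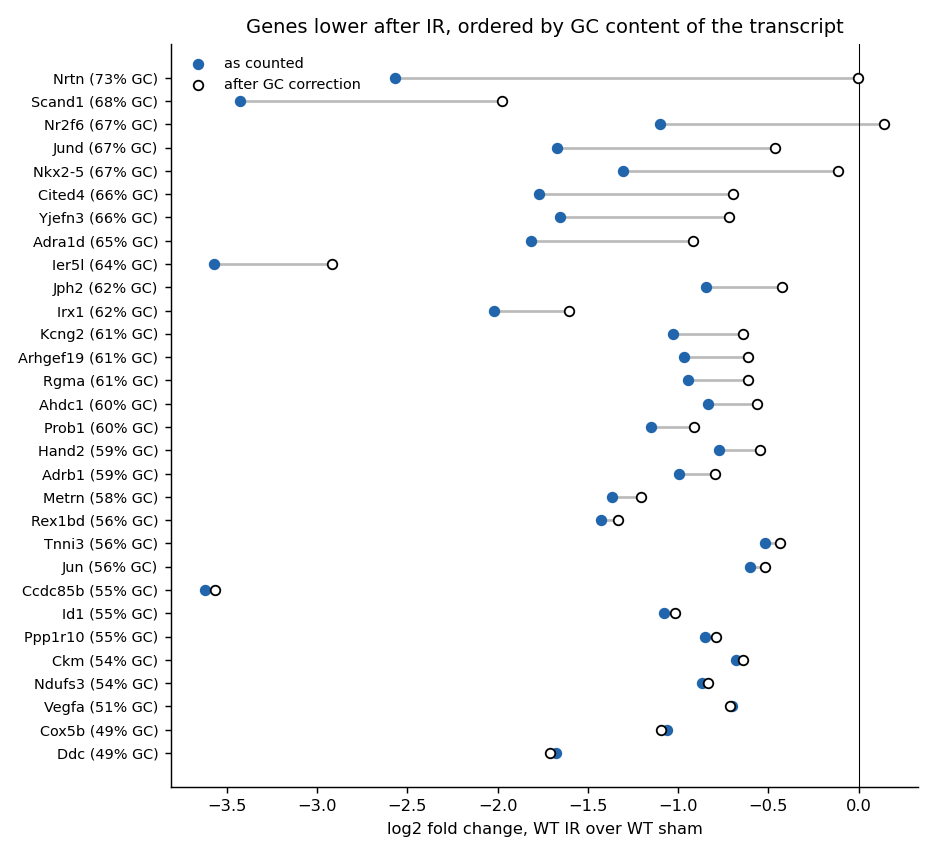
Log2 fold change of WT IR over WT sham for 30 genes lower after IR, as counted (blue) and after correction for GC content (white), ordered by the GC content of the transcript. The correction moves the genes with the most GC furthest towards 0 and hardly moves those at about 55% or less.

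Contractile genes stayed at high levels, with modest decreases. Of 24 sarcomere genes none rose and 6 fell (median -0.22), and of 15 cardiomyocyte markers none rose and 5 fell (median -0.24). Ttn (titin) was at 39003, 41432 and 37338 CPM in the WT sham hearts and 37981, 33169 and 30172 CPM in the WT IR hearts (log2 fold change -0.22 ± 0.22). Myl2, the ventricular regulatory light chain, was at 2564, 2611 and 2595 CPM in the WT sham hearts and 2789, 2467 and 2207 CPM in the WT IR hearts (log2 fold change -0.06 ± 0.13), neither passing the test. Tnni3 (cardiac troponin I), the inhibitory subunit of the thin filament, was at 1344, 1359.5 and 1408 CPM in the WT sham hearts and 1182, 882 and 805 CPM in the WT IR hearts (log2 fold change -0.52 ± 0.15, adjusted p = 0.0373). Myl3, the ventricular essential light chain, was at 1292, 1291 and 1236 CPM in the WT sham hearts and 1052, 746 and 787 CPM in the WT IR hearts (log2 fold change -0.56 ± 0.14, adjusted p = 0.0237). Sarcomere genes took 17.9% to 19.4% of nuclear counts in sham hearts and 18.3%, 16.5% and 15.1% in injured hearts. With scaling on cardiomyocyte markers the median of the sarcomere list was 0.05. Tnni3 and Myl3 each lost the call without WT sham 1, WT sham 2, WT sham 3 or WT IR 2 (adjusted p up to 0.152 and 0.111), and Tnni3 also without WT IR 3.

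Calcium handling genes, the subject of the study, were lower in 6 of 34 and higher in none (median -0.23). With scaling on cardiomyocyte markers the median of this list was 0.04, beside 0.29 for all genes. Between 3 and 16 of its genes were called lower when 1 library was left out, and none passed the test against 1.5-fold. Ryr2, the calcium release channel of the sarcoplasmic reticulum, was at 1988, 2068 and 1816 CPM in the WT sham hearts and 1579.5, 1265 and 1077 CPM in the WT IR hearts (log2 fold change -0.58 ± 0.15, adjusted p = 0.0276). Atp2a2 (SERCA2), the pump that refills it, was at 4702, 4427 and 4018 CPM in the WT sham hearts and 3855, 3057 and 2695 CPM in the WT IR hearts (log2 fold change -0.45 ± 0.17, adjusted p = 0.0822). Its inhibitor Pln (phospholamban) was at 2342, 2446 and 2578 CPM in the WT sham hearts and 2461, 2115 and 1852 CPM in the WT IR hearts (log2 fold change -0.20 ± 0.14, adjusted p = 0.342). Other calcium handling genes were lower as well. Adrb1, the main cardiac beta-adrenergic receptor, was at 5.9, 5.95 and 6.11 CPM in the WT sham hearts and 3.41, 2.91 and 2.65 CPM in the WT IR hearts (log2 fold change -1.0 ± 0.13, adjusted p = 0.00339). Cacna1g, a T-type calcium channel, was at 9.49, 9.66 and 10.6 CPM in the WT sham hearts and 4.81, 4.39 and 6.15 CPM in the WT IR hearts (log2 fold change -0.96 ± 0.13, adjusted p = 0.00402). Jph2 (junctophilin 2), which holds the plasma membrane to the store, was at 131, 116 and 102 CPM in the WT sham hearts and 80.4, 57.8 and 55.6 CPM in the WT IR hearts (log2 fold change -0.85 ± 0.15, adjusted p = 0.00734). After GC correction the log2 fold changes were -0.80 for Adrb1, -0.79 for Cacna1g, -0.42 for Jph2 (adjusted p = 0.0362) and -0.61 for Ryr2. Adrb1, Cacna1g and Jph2 kept their calls whichever library was left out, whereas Ryr2 lost it without WT sham 1, WT sham 2, WT sham 3 or WT IR 2 (adjusted p up to 0.131).

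Ion channel genes were lower in 12 of 32 and higher in 1 (median -0.50). Kcng2, a modifier subunit of potassium channels, was at 34.7, 33.2 and 30.8 CPM in the WT sham hearts and 19.1, 14.9 and 14.4 CPM in the WT IR hearts (log2 fold change -1.03 ± 0.11, adjusted p = 0.00208). Hcn4, the pacemaker channel, was at 2.57, 3 and 1.98 CPM in the WT sham hearts and 1.34, 1.06 and 0.97 CPM in the WT IR hearts (log2 fold change -1.18 ± 0.21, adjusted p = 0.00797). Kcnh2, which carries the rapid repolarizing current, was at 19.4, 22 and 21.6 CPM in the WT sham hearts and 14.7, 9.42 and 7.83 CPM in the WT IR hearts (log2 fold change -0.98 ± 0.19, adjusted p = 0.0101). Hcn2, a second pacemaker channel, was at 9.27, 7.7 and 7.68 CPM in the WT sham hearts and 5.72, 3.36 and 4.06 CPM in the WT IR hearts (log2 fold change -0.91 ± 0.18, adjusted p = 0.0111), a change that was -0.02 after GC correction. Gja1 (connexin 43), the main gap junction protein of the ventricle, was at 205, 223 and 254 CPM in the WT sham hearts and 202, 223 and 191 CPM in the WT IR hearts (adjusted p = 0.341). Scn7a, a sodium channel also expressed by glia and stromal cells, was the one list member that rose (Kcnma1 and Kcne4, described above as higher, are not in the list), at 27.4, 29.1 and 28.8 CPM in the WT sham hearts and 43.7, 57.2 and 73.7 CPM in the WT IR hearts (log2 fold change 1.03 ± 0.16, adjusted p = 0.00486). Without WT sham 2, Hcn4, Kcnh2 and Hcn2 lost their calls (adjusted p of 0.0576, 0.0616 and 0.0555), and Kcnh2 also without WT IR 2 (adjusted p = 0.0523).

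Oxidative metabolism was lower across its branches by small amounts. Of 36 nuclear complex I subunits 15 fell and none rose (median -0.31), and all 36 had a negative log2 fold change. Of 41 subunits of complexes II to V 14 fell and none rose (median -0.28), of 20 genes of the tricarboxylic acid cycle 9 fell and none rose (median -0.34), and of 35 genes of fatty acid uptake and oxidation 20 fell and 1 rose (median -0.44). Cox5b, a subunit of cytochrome c oxidase, fell most among the respiratory genes, at 75.4, 80.3 and 87.1 CPM in the WT sham hearts and 47.3, 35.8 and 33.1 CPM in the WT IR hearts (log2 fold change -1.06 ± 0.13, adjusted p = 0.00266). Ndufs3, a core subunit of complex I, was at 30.7, 31 and 32 CPM in the WT sham hearts and 21.2, 15.3 and 14.8 CPM in the WT IR hearts (log2 fold change -0.87 ± 0.13, adjusted p = 0.00431). Acot2, a mitochondrial thioesterase, was at 26.2, 26.2 and 27.7 CPM in the WT sham hearts and 18.8, 15.3 and 15.3 CPM in the WT IR hearts (log2 fold change -0.69 ± 0.10, adjusted p = 0.00391). These 3 kept their calls without any single library. Cs (citrate synthase) was at 453, 479 and 472 CPM in the WT sham hearts and 407, 341 and 299.5 CPM in the WT IR hearts (log2 fold change -0.42 ± 0.12, adjusted p = 0.035). Pnpla2, the lipase that opens stored triglyceride, was at 67.9, 70.3 and 64.7 CPM in the WT sham hearts and 49.3, 42.5 and 34.4 CPM in the WT IR hearts (log2 fold change -0.68 ± 0.12, adjusted p = 0.00734). Fabp3, the fatty acid carrier of heart muscle, was at 145, 134 and 132 CPM in the WT sham hearts and 125, 110.2 and 110.1 CPM in the WT IR hearts (adjusted p = 0.066). Cpt1b, the muscle form of the enzyme that admits fatty acids to mitochondria, was at 6.77, 7.48 and 7.8 CPM in the WT sham hearts and 6.44, 5.05 and 4.14 CPM in the WT IR hearts (adjusted p = 0.0523). Its liver and foetal form Cpt1a rose, at 30.5, 23.8 and 27.5 CPM in the WT sham hearts and 36.7, 38.2 and 38.1 CPM in the WT IR hearts (log2 fold change 0.47 ± 0.09, adjusted p = 0.0112).

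Many of these metabolic calls were close to the threshold. Cs lost its call without any library but WT IR 1 (adjusted p up to 0.14), Pnpla2 without WT sham 2 (adjusted p = 0.0528) and Cpt1a without WT sham 2 or WT IR 2 (adjusted p up to 0.0685). Over the fits that left out 1 library, between 1 and 35 complex I subunits and between 1 and 30 fatty acid genes were called lower. With scaling on cardiomyocyte markers, the medians were -0.04 for complex I, -0.07 for the tricarboxylic acid cycle and -0.18 for fatty acid genes, beside 0.29 for all genes. Of the 13 mRNAs of the mitochondrial genome 7 were tested and 2 fell (median -0.49): mt-Nd2 was at 6319, 7828 and 9332 CPM in the WT sham hearts and 5722, 5259 and 4263 CPM in the WT IR hearts (log2 fold change -0.62 ± 0.19, adjusted p = 0.0492, lost without any library but WT IR 1, adjusted p up to 0.17). The other 6, among them mt-Co2 and mt-Atp6, did not pass the filter, although every respiring cell uses them, so the counts of this genome are incomplete as listed.

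Glucose and ketone genes followed in part. Of 28 genes of glucose uptake and glycolysis 7 fell and 1 rose (median -0.24), and of 20 of branched-chain amino acid and ketone catabolism 5 fell and 1 rose (median -0.29). Slc2a4, the insulin-responsive glucose transporter, was at 129, 124 and 115 CPM in the WT sham hearts and 122, 97.1 and 87.7 CPM in the WT IR hearts (adjusted p = 0.146). Pfkfb3, an activator of glycolytic flux, rose, at 3.71, 3.1 and 3.78 CPM in the WT sham hearts and 5.44, 5.45 and 7.05 CPM in the WT IR hearts (log2 fold change 0.77 ± 0.15, adjusted p = 0.00972). Bdh1, an enzyme of ketone oxidation, rose too and was at 19.8, 15.2 and 15.4 CPM in the WT sham hearts and 20.2, 26.9 and 24.9 CPM in the WT IR hearts (log2 fold change 0.51 ± 0.13, adjusted p = 0.0254). Of 11 genes of creatine and energy transfer 4 fell (median -0.21), among them Ckm (muscle creatine kinase) at 597, 630.0 and 543 CPM in the WT sham hearts and 450.1, 326 and 331 CPM in the WT IR hearts (log2 fold change -0.68 ± 0.14, adjusted p = 0.0118). Slc25a4, the ADP/ATP carrier of the heart, was at 1300.1, 1267 and 1102 CPM in the WT sham hearts and 1059, 783 and 762 CPM in the WT IR hearts (log2 fold change -0.50 ± 0.15, adjusted p = 0.0427). Without WT sham 2 all 4 called genes named here lost their calls (adjusted p of 0.0653 for Pfkfb3, 0.136 for Bdh1, 0.0734 for Ckm and 0.162 for Slc25a4). Ckm also lost it without WT IR 2 (adjusted p = 0.0619), Bdh1 without WT IR 2 or WT sham 3 (adjusted p of 0.106 and 0.0955) and Slc25a4 without any library but WT IR 1 (adjusted p up to 0.17).

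Among regulators of the cardiomyocyte and its mitochondria, 11 of 30 fell and 1 rose (median -0.31). Nkx2-5, a core cardiac transcription factor, was at 14.1, 14.1 and 14.6 CPM in the WT sham hearts and 7.97, 4.76 and 4.55 CPM in the WT IR hearts (log2 fold change -1.30 ± 0.19, adjusted p = 0.00407), but after GC correction its log2 fold change was -0.12 (adjusted p = 0.563). Hand2 was at 9, 8.31 and 10.4 CPM in the WT sham hearts and 5.03, 5.45 and 5.63 CPM in the WT IR hearts (log2 fold change -0.77 ± 0.11, adjusted p = 0.00448) and kept a call after that correction, at -0.55. Esrra (oestrogen-related receptor alpha), which drives genes of oxidative metabolism, was at 34.3, 33.5 and 26.8 CPM in the WT sham hearts and 22.2, 15.1 and 16.6 CPM in the WT IR hearts (log2 fold change -0.82 ± 0.15, adjusted p = 0.00797). Ppard, a receptor for fatty acids, was at 6.96, 6.35 and 5.99 CPM in the WT sham hearts and 4.34, 3.65 and 3.77 CPM in the WT IR hearts (log2 fold change -0.72 ± 0.12, adjusted p = 0.00651). Ppargc1a, their coactivator, was at 77.4, 68.5 and 68.5 CPM in the WT sham hearts and 75.6, 53.2 and 54.7 CPM in the WT IR hearts (adjusted p = 0.251). Myocd (myocardin), the coactivator of serum response factor, was at 61.4, 59.8 and 53.9 CPM in the WT sham hearts and 43.9, 35.2 and 31.6 CPM in the WT IR hearts (log2 fold change -0.66 ± 0.12, adjusted p = 0.00795). Esrra and Myocd lost their calls without WT sham 2 (adjusted p of 0.056 and 0.055).

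**Figure D5:**
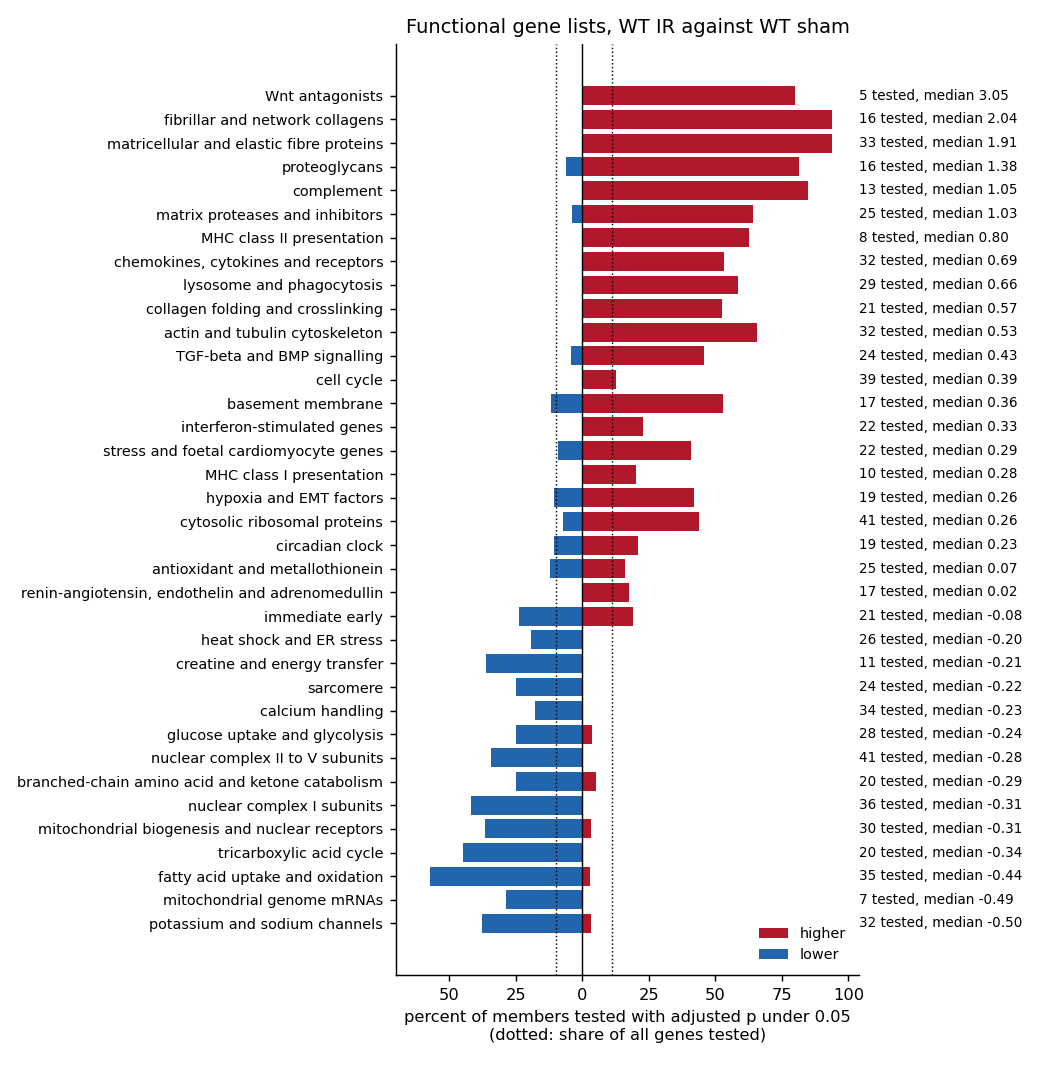
Percent of the tested members of each functional list called higher (red, right) or lower (blue, left), ordered by the median log2 fold change, with the number tested and the median at the right and dotted lines at the shares over all genes tested, 11% higher and 9.74% lower. The Wnt antagonists stand at the top, followed by matrix lists with 15 of 16 collagens higher, and metabolic and ion channel lists stand at the bottom.

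The remaining lists were mixed. Of 21 immediate early genes 4 rose and 5 fell: Jun was at 19, 18.7 and 19.4 CPM in the WT sham hearts and 12.5, 12.2 and 12.8 CPM in the WT IR hearts (log2 fold change -0.60 ± 0.07, adjusted p = 0.00266). Myc was at 0.908, 0.767 and 0.64 CPM in the WT sham hearts and 1.59, 1.67 and 2.27 CPM in the WT IR hearts (log2 fold change 1.22 ± 0.23, adjusted p = 0.00934). Fos was at 3.33, 2.18 and 2.27 CPM in the WT sham hearts and 1.28, 3.99 and 2.35 CPM in the WT IR hearts (adjusted p = 0.985). Of 26 heat shock and ER stress genes 5 fell and none rose (median -0.20), among them the mitochondrial chaperone gene Hspd1 at 45.9, 51.4 and 47.8 CPM in the WT sham hearts and 38.5, 32.8 and 29.9 CPM in the WT IR hearts (log2 fold change -0.52 ± 0.10, adjusted p = 0.0095). Of 25 antioxidant and metallothionein genes 4 rose and 3 fell, with Mt2 at 2.53, 1.5 and 1.4 CPM in the WT sham hearts and 4, 4.18 and 5.85 CPM in the WT IR hearts (log2 fold change 1.34 ± 0.24, adjusted p = 0.00796). Of 19 clock genes 4 rose and 2 fell, with Dbp, a clock output, at 5.3, 2.67 and 6.17 CPM in the WT sham hearts and 12.9, 9.18 and 8.13 CPM in the WT IR hearts (log2 fold change 1.14 ± 0.27, adjusted p = 0.0198). The time of day of collection is not given in the sources used here. Of 17 genes of the renin-angiotensin, endothelin and adrenomedullin systems 3 rose, with Ace (angiotensin-converting enzyme) at 25.8, 29.2 and 26.8 CPM in the WT sham hearts and 36.8, 51 and 59.6 CPM in the WT IR hearts (log2 fold change 0.85 ± 0.15, adjusted p = 0.00797). Calcrl, a receptor of adrenomedullin, was at 24.1, 22.2 and 25.1 CPM in the WT sham hearts and 34.5, 40.8 and 45.8 CPM in the WT IR hearts (log2 fold change 0.76 ± 0.11, adjusted p = 0.00407). Jun, Ace and Calcrl kept their calls without any single library. Myc, Hspd1, Mt2 and Dbp lost theirs without WT sham 2 (adjusted p of 0.0615, 0.0642, 0.0585 and 0.0704), Hspd1 and Dbp also without WT IR 2 and Dbp without WT sham 1.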

How the data were processed

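RNA-seq was performed by the study on 3 WT sham and 3 WT IR hearts. Per the labels and methods, strand-specific single-end reads were aligned to mm10 with STAR 2.4.2a and counted per gene, with HTSeq 0.6.1 in the submitters' processing notes and GENCODE M4 in the methods. The methods name a total RNA kit and the labels an mRNA kit. The deposited values were raw counts per gene, neither normalised nor pooled over replicates. The second table, with 6 libraries of another experiment, was not used here. No column lacked a sample.

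Genes were named and placed with GENCODE M21 (GRCm38), which matched 36429 of 38293 identifiers. Counts were tested with edgeR 4.0.16 (R 4.3.3, limma 3.58.1): TMM factors, filterByExpr (minimum count 10, minimum total 15), a quasi-likelihood fit of the 6 libraries by group, Benjamini-Hochberg adjustment over 13756 genes and a threshold of 0.05. Fitted log2 fold changes are WT IR minus WT sham. The value after ± is an approximate standard error, the absolute log2 fold change divided by the square root of the test's F statistic. The study's own DESeq release was not used here, and DESeq2 1.42.0 served as an alternative, as did limma-voom, other scaling factors and filters, a correction for transcript GC content (loess, span 0.5), the replicate number as a block and the omission of each library. On simulated counts of 13934 genes, with 196 of them changed, this test recovered 83.3% of those changed 2-fold. It recovered 100% of those changed 4-fold, and 5.24% of its calls were false. In the measured counts 1519 genes were called higher and 1340 lower, and whether these rates hold there was not tested. Libraries held 20215781 to 36816818 counts. With 3 hearts per group, p-values measure only the spread between these hearts.

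Members and gene lists were chosen with earlier results of these data known. The text names Zeb2, Hif1a, the 15 genes per direction with the smallest p-values, the 10 with the largest fold changes at 1 CPM or more, the 10 with the largest CPM differences (called, groups not overlapping, predicted genes left out), pre-marked list genes, and up to 4 further members per list and direction. Acan, Hcn2, Il33, Rn7sk and Rpl3 were named after their values were seen. Some members of the lists are counted but not reported here by name.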

Additional observations from a re-analysis of the deposited data

How the results depend on the processing

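Against 1519 higher and 1340 lower genes, factors set on cardiomyocyte markers gave 2788 and 229, glmTreat at 1.5-fold 156 and 35, an adjusted p under 0.01 409 and 290, and an unadjusted p under 0.05 2584 and 2389. Leaving out 1 library gave 226 to 2543 higher and 195 to 2437 lower genes, lowest without WT sham 2 and highest without WT IR 1. The other settings stayed within 1.5 times, at 1205 to 1951 higher and 938 to 1617 lower genes. DESeq2 gave 1305 and 1183, and limma-voom 1355 and 1376. The median log2 fold change of all genes tested was 0.0064, and it was -0.018 with GC correction, 0.0012 with RLE size factors, 0.29 with cardiomyocyte marker factors, 0.027 without a filter, 9.5e-05 without mitochondrial genes, 0.013 with upper-quartile factors and -0.00015 to 0.0047 with 1 library left out. Nr2f6 reversed to 0.14 with GC correction and 0.15 with GC correction and the replicate block. The cause of these shifts was not tested.

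Replicate numbers are shared between the groups, but they mark different animals. Deviations from the group means correlated at -0.034, 0.012 and -0.015 between hearts of the same number and at 0.090 between WT sham 2 and WT IR 1, so the numbers did not pair the hearts, and no heart correlated best with its own number. With the replicate block, 1395 genes were higher and 1200 lower, and 1205 and 938 with GC correction added. Of the 131 called genes named in the text, 69 kept their call under every alternative run and 106 under all those that keep the 6 libraries. The call was lost by 3 with the block (Acta1, Hba-a1 and mt-Nd2), 7 with GC correction, 14 with cardiomyocyte marker factors, 4 with limma-voom, 1 with upper-quartile factors and 0 with DESeq2 or RLE factors. It was lost by 54 without WT sham 2, 26 without WT IR 2, 20 without WT sham 3, 16 without WT sham 1, 9 without WT IR 3 and 0 without WT IR 1.

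Depth limits the low genes. In WT sham hearts, C1qtnf3, Col11a1, Kcnma1 and Acan each rested on 4 counts in all and Spp1 on 6, so the sizes of their fold changes are imprecise. These genes passed the filter on low counts through the WT IR hearts alone, and Ccdc85b passed it through the WT sham hearts alone.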

Other observations

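The genes below belong to none of the lists described above and were chosen after their values were seen. Nox4, which encodes an NADPH oxidase that makes reactive oxygen species, was at 1.06, 1.07 and 0.931 CPM in the WT sham hearts and 5.81, 9.58 and 21.1 CPM in the WT IR hearts, so every WT IR heart lay above every WT sham heart (log2 fold change 3.54 ± 0.49, adjusted p = 0.00391). Dio2, which encodes the deiodinase that makes active thyroid hormone, was at 1.55, 1.07 and 1.05 CPM in the WT sham hearts and 6.75, 11.9 and 23.2 CPM in the WT IR hearts (log2 fold change 3.49 ± 0.46, adjusted p = 0.00366). For both genes WT IR 1 was the lowest and WT IR 3 the highest injured heart. The largest adjusted p on leaving out 1 heart was 0.0404 for Nox4 and 0.0404 for Dio2.

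Small non-coding RNAs of the nucleus, which guide the modification and processing of other RNAs, were higher more often than lower. Of 55 small nucleolar RNAs tested, 15 were higher and 0 lower, with a median log2 fold change of 0.49. Of 9 small Cajal body RNAs, 5 were higher and 0 lower, and of 16 small nuclear RNAs, 6 were higher and 0 lower. The background share of higher genes was 11%. The small nucleolar RNA Snora73b was at 33.7, 27 and 32.4 CPM in the WT sham hearts and 54.6, 63 and 74.9 CPM in the WT IR hearts (log2 fold change 1.05 ± 0.13, adjusted p = 0.00266), and Snord17 at 29.4, 23.9 and 26.2 CPM in the WT sham hearts and 43.1, 47.6 and 63.4 CPM in the WT IR hearts (log2 fold change 0.95 ± 0.14, adjusted p = 0.0045). The groups did not overlap for either. Many of these RNAs lie within introns of other genes, and multi-copy families share reads, so counts of single members are uncertain.

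Gm23935, a predicted gene with a microRNA biotype, had the most negative log2 fold change of all genes tested and was at 47.3, 42.9 and 89.7 CPM in the WT sham hearts and 0.656, 0.132 and 0.41 CPM in the WT IR hearts (log2 fold change -7.26 ± 0.44, adjusted p = 0.000304). The WT IR hearts held few counts of it. The annotated locus is short (chr16:11144125-11144181, plus strand, GRCm38), and reads that end outside it or match other copies were not examined.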
